A study of Rattus norvegicus with 10 samples.

Results

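Lysosomes are acidic organelles in which enzymes take apart glycans, proteins and lipids that arrive from the cell surface or from the cell's own compartments. Their enzymes work at low pH, which a proton pump of the membrane, the V-ATPase, sets by coupling ATP use in its V1 sector to proton passage through its V0 sector. In chondrocytes, lysosomes take in and degrade cartilage matrix, glycosaminoglycans included, and many genes for their parts share a short promoter element bound by TFEB and related transcription factors. Genes for 53 such proteins were named by symbol beforehand: glycosidases and related glycan enzymes, cathepsins and another peptidase, lipid enzymes with their helper proteins, membrane proteins, and proton pump subunits. Of these, 43 had a row among the 10184 rows of the deposited table, and all 43 passed the filter on low values. The 10 other symbols were skipped: Gla, Hgsnat, Hyal1, Ctsz, Ctsk, Ctsc, Galc, Atp6v0a2, Atp6v1f and Atp6v1g1. Genes were matched by symbol, and 813 rows had no symbol. A gene given as not listed, here or below, is thus not shown to be absent.

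The cells were RCS, a cartilage-matrix-producing line from a rat chondrosarcoma. They were either wild type (WT, 5 libraries) or had ARSL knocked out (KO, 5 libraries), and RNA was taken 48 h after seeding, without treatment. ARSL encodes the sulfatase arylsulfatase L, which works in the secretory route. Both groups were grown in the same medium with fetal bovine serum. The labels call the libraries biological replicates but do not say whether they were separate cultures, nor whether the KO cells are 1 clone, so a p-value measures the spread between these libraries, and ARSL loss and a difference between lines of another origin cannot be told apart. Values are normalised reads, meaning reads divided by a library's size factor, and differences are on the deposited log2-like scale, which understates the fold change of weakly read genes. Reads were not divided by gene length, so levels are compared between libraries and not between genes.

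Libraries held 2065594 to 2591819 reads over the listed genes. Of 11 chondrocyte markers, 9 were listed, all but Sox9 and Prg4. Their summed level was 42215 to 69773 normalised reads per library in WT and 37416 to 49090.2 in KO. Single markers averaged 27.3 to 15952, so not each was abundant. Of 10 fibroblast markers, 6 were listed, with a summed level of 3572 to 5246 in WT and 2688 to 3946 in KO. Of 13 macrophage and osteoclast markers, 2 were listed, Cd14 and Cd68, and together they had 11.6 to 19.7 normalised reads in WT and 15.6 to 19.6 in KO. WT 3 and WT 4 scored 28 and 26.81 on the first principal component of all tested genes and KO 4 scored 7.91, whereas the other 7 libraries lay between -15.04 and -2.96. No label sets these 3 libraries apart, so results are also given without them. They were chosen by measured expression, in which the genes described here took part. A p-value without them thus describes the other 7 libraries and is no independent test. In a bulk sample, fewer cells with a transcript and less of it per cell cannot be told apart.

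Few lysosomal genes differed between genotypes beyond the spread of the libraries, and most differed among the WT libraries. In the comparison of KO with WT, 1 of the 43 genes passed the test (limma, adjusted p under 0.05), beside 1.14% of all 8431 tested genes. This gene was Manba, which encodes beta-mannosidase and which fell in KO. Among the other 42 genes, adjusted p-values began at 0.246. An unadjusted p under 0.05 was reached by 3 of the 43 genes, beside 1136 of the 8431 tested genes (limma). The unadjusted counts by class given below are to be read against that share. The differences leaned downward: 37 of 43 were below 0, beside 47.9% of all tested genes, with a median of -0.15 beside 0.01. Without WT 3, WT 4 and KO 4, 18 were below 0 and 25 above, and the median was 0.03; with array quality weights, which give WT 3 and WT 4 less weight, it was -0.01. In WT 3 and WT 4, 35 of the 43 genes were above all of WT 1, 2 and 5, beside 27.2% of all tested genes, and 30 had their highest pair of values among all 10 libraries there, beside 16%.

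**Figure D1:**
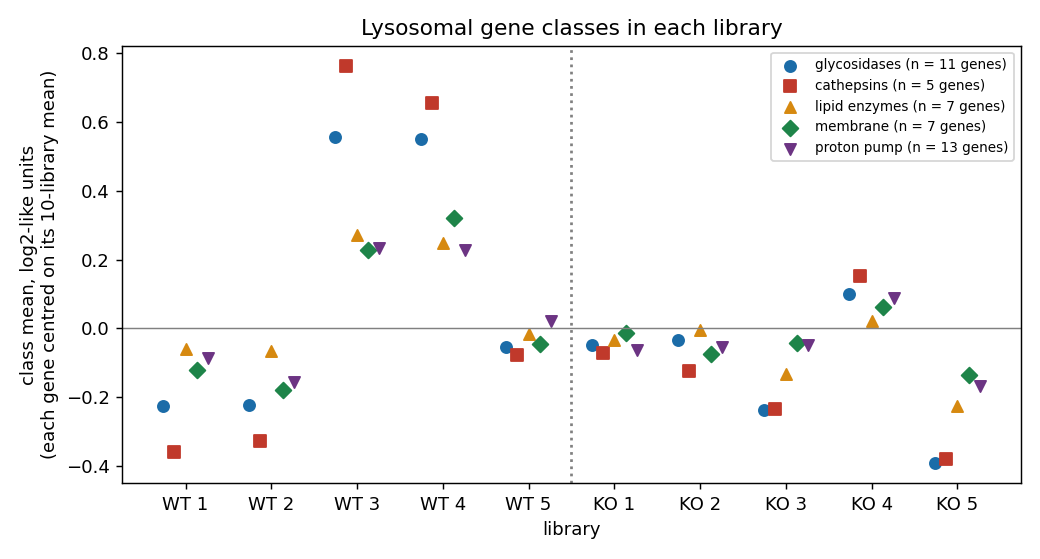
Mean of each lysosomal gene class in each library (horizontal axis), in log2-like units after centring every gene on its mean over the 10 libraries. Points of all 5 classes are highest in WT 3 and WT 4, between 0.229 and 0.762, and in KO 4 they lie between 0.022 and 0.153, above those of the other KO libraries.

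In each class WT 3 and WT 4 were the highest libraries, with different sizes. For cathepsins the class mean was 0.762 and 0.655 in these libraries, beside -0.359 to -0.076 in the other WT libraries. For glycosidases these values were 0.556 and 0.550, beside -0.224 to -0.055. Lipid enzymes reached 0.272 and 0.247, membrane proteins 0.229 and 0.320, and pump subunits 0.234 and 0.229. Within the KO group, KO 4 was the highest library for 25 of 43 genes, beside 26.7% of all tested genes. Other genes moved with the same libraries: the mean of 13 cell cycle genes was -0.413 in WT 3, -0.471 in WT 4 and -0.106 in KO 4, beside -0.046 to 0.212 in the other WT and 0.099 to 0.204 in the other KO libraries. The mean of 9 chondrocyte markers was 0.516, 0.545 and 0.069, beside -0.233 to -0.128 and -0.290 to -0.006. The 5 tested fibroblast markers did not move together. In WT 3 and WT 4, 2 of them were above all of WT 1, 2 and 5, 2 were below and 1 overlapped. For all tested genes, 27.2% were above and 29% below. The fibroblast means were 0.457, 0.356 and 0.059, beside -0.054 to 0.324 and -0.497 to -0.147. In KO against WT, 1 of 9 chondrocyte, 2 of 5 fibroblast and 0 of 13 cell cycle genes passed, all downward, beside 1.14% of all tested genes called and 0.878% called as lower. The part of these genes' processes in the lysosomal values was not tested. Since WT 3 and WT 4 are set apart by measured expression, in which these genes took part, their difference from WT 1, 2 and 5 is a description with no test.

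The promoters are shown because the genes varied together and the known element can be looked for in them. RefSeq promoter windows of the GRCr8 assembly, which is not the build the reads were mapped to, 250 bases before to 50 after the annotated start, were found for 35 of the 43 genes. The central palindrome of the element, TCACGTGA, was in 6 of the 35, beside 2.09% of the 7021 windows of tested genes and 0.777% of all 33469 windows. Its 6-letter core, CACGTG, which lies within the palindrome and which many other factors also bind, was in 10 of the 35, beside 10.2% and 6.42%. Many lysosomal genes are known to share this element, so these shares describe the list and are no finding of these data. Both motifs read the same on the other strand. Lamp1 held 5 cores, 2 of them in a palindrome; the 190 bases before its start, chr16:83075064-83075253 on the minus strand, are given first. The 30-base windows that follow hold the other palindromes and the core of Gaa, which had the largest difference of WT 3 and WT 4 from the other WT libraries. Sequences run 5′ to 3′ on the gene's strand, with the core in capitals for Lamp1 and Gaa and the palindrome in capitals for the others.
Lamp1: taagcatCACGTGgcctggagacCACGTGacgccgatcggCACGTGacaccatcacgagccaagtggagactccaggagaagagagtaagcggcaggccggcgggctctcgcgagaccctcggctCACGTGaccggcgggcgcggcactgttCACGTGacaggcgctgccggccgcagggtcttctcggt
Ctsd: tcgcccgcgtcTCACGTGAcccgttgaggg
Cln3: cacgggtactgTCACGTGAtccccaacctg
Mcoln1: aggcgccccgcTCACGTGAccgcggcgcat
Atp6v0e1: tcgcgcgccggTCACGTGAgcctctgttga
Atp6v0d1: ccccattgtggTCACGTGAgatgcagtgcg
Gaa: ccgcccacaaacCACGTGacccacgctgcc

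These windows lie at chr1:206968814-206968843 (Ctsd, minus strand), chr1:190597950-190597979 (Cln3, minus), chr12:6358250-6358279 (Mcoln1, plus), chr10:17007115-17007144 (Atp6v0e1, minus), chr19:50357283-50357312 (Atp6v0d1, minus) and chr10:105028276-105028305 (Gaa, plus). Genes with the palindrome did not all behave alike in WT 3 and WT 4. Lamp1, Ctsd, Atp6v0e1 and Atp6v0d1 were higher there by 1.11, 0.85, 0.73 and 0.56 log2-like units. The values of Cln3 and Mcoln1 overlapped those of the other WT libraries, with differences of -0.15 and -0.29. Cln3 and Mcoln1 were weakly read, averaging 24.1 and 52.1 normalised reads, beside 172 to 2688 for the other genes with a palindrome. Among the 25 genes with no core in the window, 21 were above WT 1, 2 and 5 in both libraries, as were 8 of the 10 with a core. The median difference was 0.45 without a core and 0.65 with one. A link between the element and these values was not tested. A match is a match of letters only, and binding was not measured.

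Most glycosidases remove single sugars from the ends of glycans, and Manba acts on the last mannose left at the core of N-linked chains. Manba had 62.8, 63.9, 121, 111 and 65.5 normalised reads in WT 1 to 5 and 40.8, 41.3, 15.7, 42.9 and 22.4 in KO 1 to 5. Every KO library lay below every WT library, and Manba was the 1 gene of the 43 for which this held, beside 2.4% of all tested genes. It fell 2.60-fold, from 84.9 ± 28.8 to 32.6 ± 12.6 (SD, n = 5 each), with a difference of -0.85 ± 0.17 (SE; limma adjusted p = 0.0277; 0.878% of all tested genes were called as lower in KO). Without WT 3, WT 4 and KO 4 it fell by 0.67 (adjusted p = 0.0086). The call was lost without WT 3 or 4 or KO 1, 2, 3 or 5, with an adjusted p of up to 0.102, while all 19 alternative fits kept the direction. The difference was -1.43 with limma-voom, on its own log2 CPM scale.

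The other 10 glycosidases did not pass, and all 11 were above WT 1, 2 and 5 in both WT 3 and WT 4. Gaa, the acid alpha-glucosidase that degrades glycogen, had 406, 470.4, 1429, 1315 and 578 normalised reads in WT 1 to 5 and 624, 566, 496, 817 and 383 in KO 1 to 5. WT 3 and WT 4 were 2.83-fold above the mean of the other WT libraries, KO 4 was the highest KO library, and KO and WT overlapped (difference -0.37 ± 0.31, SE; limma adjusted p = 0.622). Fuca1, an alpha-fucosidase, had 209, 194, 447, 399 and 231 in WT and 233, 229, 159.7, 254 and 144 in KO, 2.00-fold higher in WT 3 and WT 4. Its KO minus WT difference was -0.42 (SE 0.21, adjusted p = 0.397), and -0.14 without the 3 libraries. Man2b1, the lysosomal alpha-mannosidase, which like Manba degrades N-linked glycans, had 367, 347, 700.2, 745 and 412 in WT and 452, 437, 408, 516 and 333 in KO. Its KO values lay within the WT range apart from the lowest, and its difference was -0.19 (SE 0.19, adjusted p = 0.692). Hexa and Glb1, which also degrade gangliosides, Gusb, Naglu, Idua and Hyal2, which degrade glycosaminoglycans, and the sialidase Neu1 had differences of -0.28 to 0.05 between genotypes and were 1.34-fold to 2.64-fold higher in WT 3 and WT 4. The upper end was that of Idua, which averaged 14.9 normalised reads, close to the filter of 10.7.

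**Figure D2:**
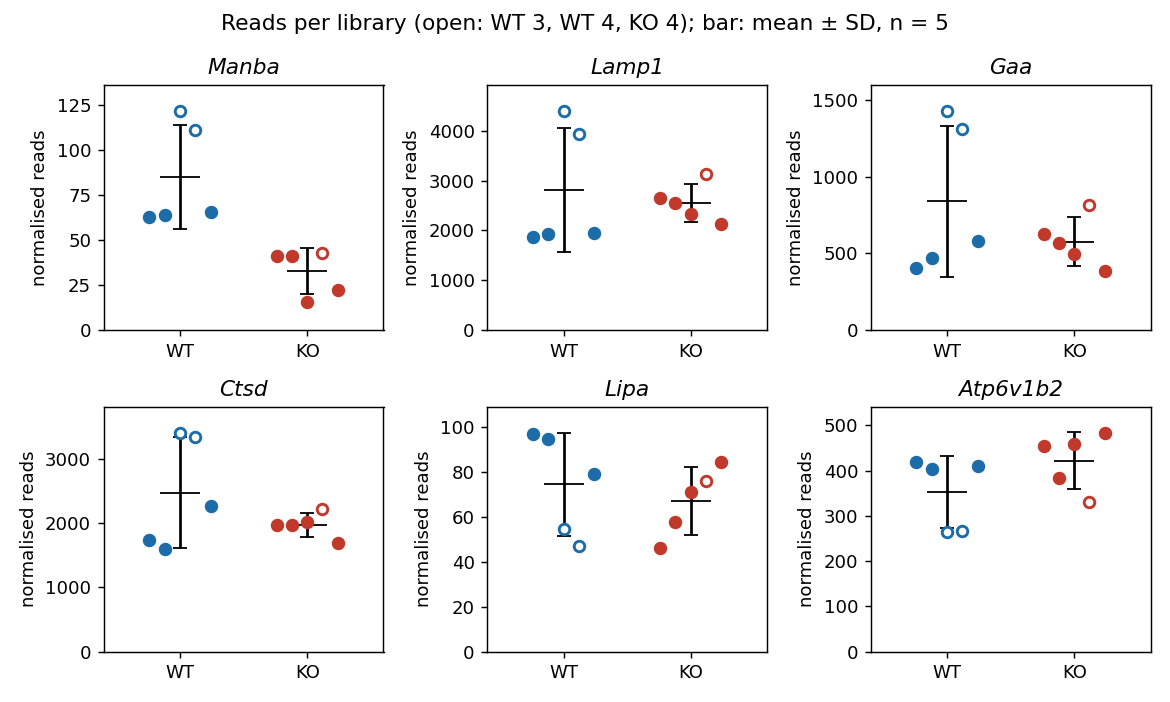
Normalised reads (vertical axis, from 0) of 6 lysosomal genes in WT and KO libraries, 1 point a library, with WT 3, WT 4 and KO 4 as open points and the mean and SD of 5 libraries as bars. Manba separates the genotypes, Lamp1, Gaa and Ctsd are highest in WT 3 and WT 4, and Lipa and Atp6v1b2 are low there.

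Cathepsins are the proteases of the lysosome. All 5 listed peptidases were higher in WT 3 and WT 4 than in the other WT libraries, by 1.68-fold to 3.25-fold, and highest in KO 4 within the KO group. In KO against WT 0 of 5 passed, with 1 at an unadjusted p under 0.05 (limma), beside 1136 of all 8431 tested genes. Ctsl, the cysteine protease cathepsin L, came closest, with 1006, 968, 1799, 1805 and 1087 normalised reads in WT 1 to 5 and 910.4, 966, 814, 1129 and 777 in KO 1 to 5. Its difference was -0.47 ± 0.18 (SE; adjusted p = 0.246), and -0.23 without the 3 libraries (adjusted p = 0.172). Without those libraries the KO values of Ctsl lay just below the WT values, with the highest KO at 966 and the lowest WT at 968.

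Ctsd, an aspartic protease, had 1728, 1603, 3398, 3339 and 2269.5 normalised reads in WT and 1966, 1975, 2009, 2216 and 1695 in KO. WT 3 and WT 4 stood apart, and the KO values lay within the range of the other WT libraries (difference -0.25, SE 0.19, limma adjusted p = 0.573). Ctsb, a cysteine protease, had 323, 320.3, 786, 793 and 365 in WT and 399, 405, 317, 512 and 286 in KO, 2.35-fold higher in WT 3 and WT 4. Tpp1, which cuts tripeptides from the ends of proteins, had 77.6, 79.4, 304, 249.5 and 98.3 in WT and 122, 90.1, 102, 153 and 90.6 in KO. Its ratio of WT 3 and WT 4 to the other WT libraries, 3.25, was the largest of the 43 genes. Ctsa, which also protects Neu1 and Glb1 in a complex, was 1.68-fold higher there and differed by -0.01 between genotypes.

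Lipid enzymes and their helpers handle sphingolipids and cholesterol esters, and 0 of 7 passed in KO against WT, with differences of -0.36 to -0.02. Only 1 had an unadjusted p under 0.05 (limma), beside 1136 of all 8431 tested genes. Psap, the precursor of the saposins that present sphingolipids to hydrolases, had 2675, 2861, 4009, 4380.4 and 3042 normalised reads in WT 1 to 5 and 3221, 3047, 2760.4, 3324 and 2527 in KO 1 to 5. Npc2, the soluble cholesterol carrier of the lysosome, had 318, 286, 631, 597 and 335 in WT and 319.9, 346, 289.9, 375 and 241 in KO. Both were higher in WT 3 and WT 4, by 1.47-fold and 1.96-fold, and KO overlapped the other WT libraries; the differences between genotypes were -0.17 (SE 0.14, adjusted p = 0.627) and -0.36 (SE 0.19, adjusted p = 0.443).

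A pair of lipid enzymes departed from the rest. Asah1, acid ceramidase, had 216, 223, 249, 241 and 256 normalised reads in WT and 202, 217, 221, 195 and 159.6 in KO. It was the 1 gene of this class whose WT 3 and WT 4 values overlapped the other WT libraries. Its difference between genotypes was -0.22 ± 0.096 (SE; limma adjusted p = 0.329) and -0.18 without the 3 libraries. Lipa, the lysosomal acid lipase that splits cholesterol esters, ran the other way: 96.8, 94.8, 54.7, 46.8 and 79.3 in WT and 46.2, 57.6, 71.1, 76.1 and 84.3 in KO. WT 3 and WT 4 were below WT 1, 2 and 5, whose mean was 1.78-fold higher. Besides Lipa, Atp6v1b2 was the other of the 43 genes below all of WT 1, 2 and 5 in both libraries, beside 29% of all tested genes. Lipa differed by -0.09 between genotypes with all libraries and by -0.34 without the 3 (SE 0.13, adjusted p = 0.161). Ppt1, which removes fatty acids from proteins, the sphingomyelinase Smpd1 and Gm2a, the helper of Hexa, were 1.43-fold to 1.48-fold higher in WT 3 and WT 4.

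Among the 7 membrane proteins, 0 passed with all libraries (limma; 0 at an unadjusted p under 0.05). Lamp1, a heavily glycosylated protein that lines the inside of the lysosomal membrane, had 1876, 1920.1, 4397, 3948 and 1941 normalised reads in WT 1 to 5 and 2652, 2544, 2331, 3139.5 and 2133 in KO 1 to 5. The KO values fell in the gap between WT 1, 2 and 5 below and WT 3 and WT 4 above. The difference was -0.04 ± 0.23 (SE; adjusted p = 0.953) with all libraries. Without WT 3, WT 4 and KO 4, Lamp1 was higher in KO by 0.33 ± 0.087 (SE), at 2415 beside 1912 normalised reads (limma adjusted p = 0.035). WT 3 and WT 4, left out for their measured expression, held the highest Lamp1 values, so this p-value is no independent test. In that fit 2 of the 43 genes passed, Lamp1 upward and Manba downward, beside 3.56% of all tested genes. KO values lay wholly above WT for Lamp1, Hyal2 and Scarb2, 3 of 43 beside 6.8% of all tested genes, and wholly below for Manba and Ctsl, 2 of 43 beside 7.79%. These shares are near the background.

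Lamp2, whose splice forms serve several routes of autophagy, had 118, 93.9, 226, 241 and 92.0 normalised reads in WT and 104, 96.7, 96.9, 172 and 75.3 in KO. WT 3 and WT 4 were 2.31-fold above the other WT libraries and KO 4 was 1.84-fold above the other KO libraries. Cd63, a tetraspanin of late endosomes and lysosomes, had 5249.9, 5709, 7733, 8353 and 7019 in WT and 6872, 5919, 6384, 6331 and 4955 in KO, and WT 5 came next after WT 4 and WT 3. Cln3, a membrane protein altered in a childhood storage disease, had 32.3, 23.2, 16.4, 30.6 and 29.6 in WT and 22.5, 22.8, 20.3, 19.5 and 23.3 in KO. WT 3 was its lowest library and WT 4 was among the higher ones, unlike most of the other genes. Its difference between genotypes was -0.12 (SE 0.11, limma adjusted p = 0.639). Mcoln1, the calcium channel of the lysosome, also gave overlapping values, while Npc1, which exports cholesterol, and Scarb2, the receptor that carries glucocerebrosidase, were 1.54-fold and 1.27-fold higher in WT 3 and WT 4.

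**Figure D3:**
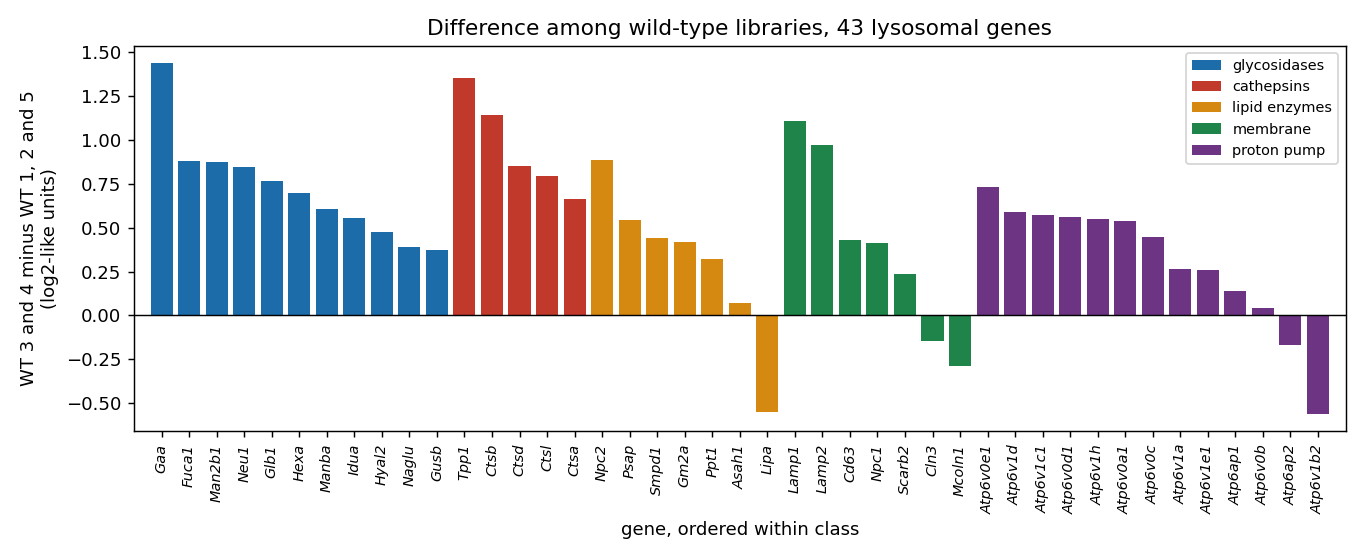
Difference of the means of WT 3 and 4 and of WT 1, 2 and 5 (vertical axis, log2-like units) for each of the 43 genes, ordered within its class. All 11 glycosidases and 5 peptidases lie above 0, from 0.38 to 1.44, while Lipa and Atp6v1b2 lie at -0.55 and -0.56.

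The 13 listed pump genes held 0 calls in KO against WT (limma; 0 at an unadjusted p under 0.05), with differences of -0.27 to 0.25. In the V0 sector, Atp6v0c, which forms most of the rotating ring in the membrane, had 1065, 1125, 1579, 1488 and 1152 normalised reads in WT 1 to 5 and 1037, 1079.6, 1065, 1284 and 927 in KO 1 to 5. Atp6v0e1, a small membrane subunit, had 327, 304, 529.5, 549.7 and 296 in WT and 299.5, 313, 318, 381 and 265 in KO. Both were higher in WT 3 and WT 4, by 1.38-fold and 1.75-fold, and highest in KO 4 within the KO group. Between genotypes they differed by -0.23 (SE 0.12, adjusted p = 0.445) and -0.27 (SE 0.16, adjusted p = 0.490). Of the 5 V0 genes, 4 were above WT 1, 2 and 5 in both libraries. The exception was Atp6v0b, whose level in WT 3 and WT 4 was 1.03 times that in the others.

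In the V1 sector, 5 of 6 genes were higher in WT 3 and WT 4 and 1 was lower. Atp6v1d, part of the central stalk, had 207, 178, 341, 293 and 207 normalised reads in WT and 184, 175, 202, 298 and 169.5 in KO, with WT 3, WT 4 and KO 4 as the 3 highest libraries. Atp6v1b2, the B subunit of the head that binds nucleotide beside the catalytic A subunit, had 420.1, 403, 265, 267 and 410.1 in WT and 454, 384, 459, 329.9 and 483 in KO. WT 3, WT 4 and KO 4 were its 3 lowest libraries, the opposite order to Atp6v1d. Between genotypes Atp6v1b2 differed by 0.25 (SE 0.14, limma adjusted p = 0.480), the largest upward difference of the 43 genes, and by 0.10 without the 3 libraries. Its partner Atp6v1a was 1.21-fold higher in WT 3 and WT 4, with differences of -0.13 and -0.05. The head's subunits thus had unequal values across the same libraries.

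The accessory proteins of the pump differed little. Atp6ap1, which takes part in its assembly, had 732, 759.7, 829, 939 and 915 normalised reads in WT and 843, 833, 846, 777 and 773 in KO. KO lay within the WT range, and WT 3 overlapped WT 5 (KO minus WT -0.03, SE 0.092, limma adjusted p = 0.912). Atp6ap2, the prorenin receptor, also overlapped, at 1.19-fold higher in WT 1, 2 and 5.

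**Figure D4:**
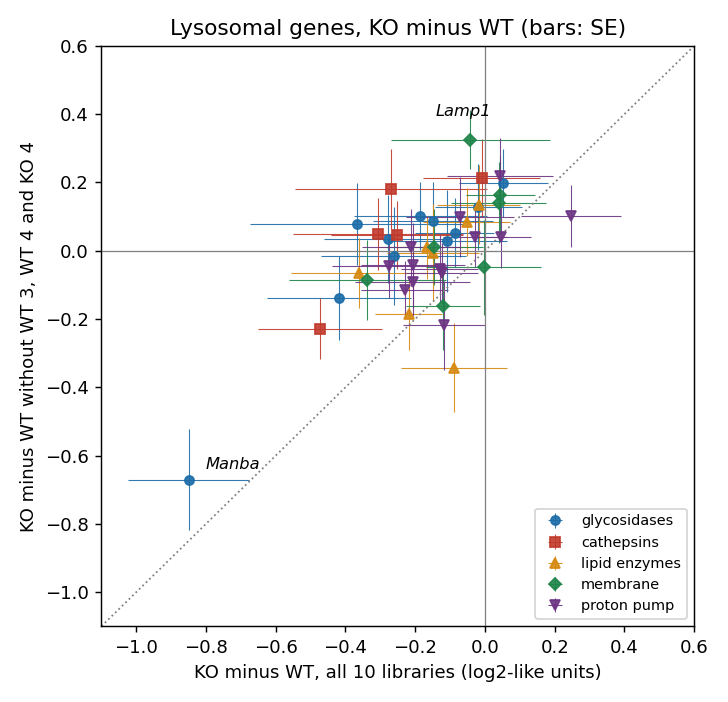
KO minus WT difference of the 43 genes with all 10 libraries (horizontal axis) and without WT 3, WT 4 and KO 4 (vertical axis), in log2-like units with SE bars; the dotted line marks equal values and colours mark classes. Most points left of 0 lie above the line and near 0 on the vertical axis, while Manba stays low, at -0.85 and -0.67, and Lamp1 goes from -0.04 to 0.33.

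Other genes of the pathway, from 5 lists of 113 symbols, held 1 call in 80 tested genes, a share near the 1.14% of all tested genes. Zkscan3, a zinc-finger repressor of lysosome and autophagy genes, had 62.8, 66.8, 83.2, 68.8 and 63.4 normalised reads in WT 1 to 5 and 48.3, 23.9, 42.5, 35.1 and 29.6 in KO 1 to 5. All KO values lay below all WT values, and it fell 1.92-fold; the difference of -0.58 had an SE of 0.12 (limma adjusted p = 0.021; 0.029 without the 3 libraries; difference -0.96 with limma-voom). Its call was lost without WT 3 or KO 2, 3 or 5, with an adjusted p of up to 0.083. It was 1 of 15 tested genes of lysosomal transcription factors and their control. There Tfeb differed by 0.04 (SE 0.11, limma adjusted p = 0.896) and Mitf by -0.38 (SE 0.14, adjusted p = 0.231).

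In the other 4 lists 0 genes passed. The list of further hydrolases, which also held the non-enzymes Grn and Tmem106b, had 20 tested genes outside the 43. Of these, 13 were above WT 1, 2 and 5 in both WT 3 and WT 4, beside 27.2% of all tested genes. The counts of the lists that follow are also to be read against that share. Among 15 membrane and transport proteins, Ostm1 had the smallest p; it is the partner of a chloride transporter (-0.30, SE 0.11, adjusted p = 0.246), and 11 were higher in WT 3 and WT 4. Oxr1 had it among 11 further pump genes and regulators (-0.38, SE 0.10, adjusted p = 0.109), none of which lay above WT 1, 2 and 5 in both libraries. Ap1s1, an adaptor subunit for transport from the Golgi, had it among 19 genes that tag and sort lysosomal enzymes by mannose 6-phosphate or assist their traffic (-0.38, SE 0.11, adjusted p = 0.125), where 9 were higher in both. Without the 3 libraries Oxr1 fell by 0.44 (limma adjusted p = 0.0097) and Ap1s1 by 0.39 (adjusted p = 0.044). In that fit 1 gene passed in each pathway list apart from membrane and transport proteins, which held 0, beside 3.56% of all tested genes.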

How the data were processed

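The deposited table holds 10184 genes and 10 libraries in variance-stabilized values, a scale close to log2 that the authors had normalized for library size. Per the submitters' processing notes, bcl2fastq, STAR 2.7.11a and HTSeq were used on rn6. What made these values, how genes were filtered and whether counting used strand: not given in the sources used here. Inverting the transformation gave whole reads for every value (within 0.01 reads). The targeted gene, for which no row had the symbol Arsl, was not analysed here.

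The 8431 genes whose mean exceeded the table's minimum, 4.42, by 1 or more were tested. KO minus WT was fitted with limma 3.58.1 in R 4.3.3, with an intensity trend, two-sided, with Benjamini-Hochberg adjustment over all tested genes; the script was tested on simulated data. Members, classes and lists were chosen with earlier results of these data known, so lists have no p. Each class names its calls, the 2 smallest p, the 2 highest read levels and the 2 largest differences of WT 3 and 4; each pathway list names its calls or its smallest p. For 1 list, that gene is not reported here. Alternatives were a replicate block, 2 filters, 2 normalizations, 2 variance settings, limma-voom and libraries left out. Figures used matplotlib 3.10.9.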

Additional observations from a re-analysis of the deposited data

How the results depend on the processing

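Of all tested genes, 96 were called with the settings used. The count was 60 with the stricter filter, which tested 5770 genes, 219 with array quality weights and 300 without WT 3, WT 4 and KO 4. It ranged from 33 to 101 with 1 library left out, below 64 without WT 3 (62) or KO 1, 2, 3 or 5 (53, 37, 33 and 37); the cause was not tested. Among the 43 lysosomal genes, the count called ranged from 0 to 1 with 1 library left out and was 2 without the 3 libraries, where Lamp1 had the other sign, 0.33. Manba was called in the 8 alternatives that kept all libraries. With a replicate block, 136 genes passed, Manba among them (adjusted p = 0.0205). The labels give no pairing, so the numbers were not taken as pairs. Deviations of same-numbered WT and KO libraries correlated at over 0.1 for 2 of 5 numbers, 4 (0.587) and 5 (0.263). For the others the correlations were -0.293 to 0.069. The other 19 of the 43 genes given with values in full stayed uncalled in each fit run for them, which for Cln3 leaves out the stricter filter, where it was not tested. Median centring and quantile normalization called 94 and 95 genes. Weakly read genes, such as Idua and Cln3, are measured with the least precision.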

Other observations

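Of the 15 tested genes for lysosomal transcription factors and their control, 6 were above WT 1, 2 and 5 in both WT 3 and WT 4, 4 were below and 5 overlapped, beside 27.2% of all tested genes above and 29% below, and their median difference was -0.04. Of the 19 genes that tag and sort lysosomal enzymes, 9 were above, 2 below and 8 overlapped, with a median of 0.11. The genes given next were chosen after their values were seen and do not stand for their lists. Igf2r, the receptor that sorts enzymes tagged with mannose 6-phosphate, had 655, 606, 1638, 1697 and 733 normalised reads in WT 1 to 5 and 987, 836, 508, 1316 and 653 in KO 1 to 5. It was 2.51-fold higher in WT 3 and WT 4 than in the other WT libraries, and KO 4 was the highest KO library. Flcn and Fnip1, which encode folliculin and its partner in nutrient signalling at the lysosome, were 2.29-fold and 2.31-fold higher in WT 3 and WT 4. Rraga, a small GTPase of the same signalling, was lower, with 383, 391, 235, 230.4 and 444 in WT and 457, 432, 535, 225 and 361 in KO. Tfeb had 36.6, 22.3, 23.0, 32.5 and 37.0 in WT, so the WT 3 and WT 4 values of this transcription factor overlapped the others. Mitf, a further transcription factor of that list, had 27.0, 39.7, 63.5, 63.1 and 58.1 in WT and 26.8, 34.8, 28.6, 36.1 and 26.9 in KO. Its level was 1.52-fold higher in WT 3 and WT 4 than in the other WT libraries. None of these genes passed in KO against WT (limma adjusted p = 0.231 to 0.896).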
